A study of Rattus norvegicus with 102 samples.

Results

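The comparison of hippocampal region CA3 with the dentate gyrus (DG) rests on 68 of the 102 libraries of the study: 34 CA3 libraries and 34 DG libraries, chosen by the subfield in the library name and paired by the rat they came from. All rats were male Fischer 344 animals, an inbred strain used for aging research. There were 10 young rats of 5 to 6 months, and 24 aged rats of 17 to 22 months, of which 12 were classed as aged unimpaired and 12 as aged impaired from their spatial memory in a water maze. The question for this comparison was how the transcriptomes of the 2 subfields differ when all ages are pooled. Of each rat 1 hippocampus was used, the DG was teased away along the hippocampal fissure, and the remaining block, which held most but not all of CA3, was cut further by hand. Region CA2 was not isolated as a piece of its own. Bulk RNA of such a piece holds every cell type in it, so fewer cells of a type and less RNA per cell cannot be told apart.

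The DG and CA3 are consecutive stations of the hippocampal circuit. Granule cells of the DG are small, densely packed neurons that send zinc-rich axons, the mossy fibers, onto the proximal dendrites of CA3 pyramidal cells, and some granule cells are born in adult life. CA3 pyramidal cells are larger, project to each other and to CA1, and receive direct input from the entorhinal cortex on their outer dendrites.

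Rat identifiers fell into 2 series, 16 rats whose number begins with R9 (5 young, 6 aged unimpaired and 5 aged impaired) and 18 rats whose number begins with R1 or R2 (5 young, 6 aged unimpaired and 7 aged impaired), here called R9 and R1-R2. The meaning of the series is not given in the labels. The study kept and tested its rats at 2 sites, with as many young and aged rats at each as the series hold, but the labels name no site for a rat, so series and site cannot be told apart. Each direction was therefore checked in each series alone. Sequencing depth did not separate the subfields: the recovered read totals of the 68 libraries ran from 4478984 to 18739670, with a median of 9735250 in CA3 and 9611060 in DG.

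The labelled subfields were checked against marker genes of granule cells and of CA3 pyramidal cells. A list score is the mean over the list's genes of log2(normalized count + 1), centered on the mean of all 102 libraries. In the R1-R2 rats the granule cell score ran from -2.66 to -0.28 in CA3 and from 0.58 to 1.75 in DG, so the libraries did not overlap. The CA3 score of the same rats was higher in the CA3 library than in the DG library of 18 of 18 rats, by 0.63 ± 0.20 (SD, n = 18). In the R9 rats the granule cell score ran from -1.66 to 0.99 in CA3 and from -1.27 to 1.38 in DG, so there the libraries overlapped.

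Libraries of the R9 series went against their labels in several rats. Among the CA1, CA3 and granule cell lists, the list of its own subfield was highest in 3 of 16 R9 libraries labelled CA3, whereas 10 scored highest for CA1 and 3 for granule cells. Among R9 libraries labelled DG, 11 of 16 scored highest for their own list, 4 for CA3 and 1 for CA1. In the R1-R2 series 18 of 18 libraries of each subfield scored highest for their own list. The CA1 list as drawn up includes Wfs1, Nov, Ndst4 and Gpr161, which the study put forward for CA1 on these animals. It is therefore not independent of these data. The CA3 score of the R9 rats was lower in the library labelled CA3 than in the library labelled DG, by 0.44 ± 0.51 (SD, n = 16), with the opposite order in 3 rats. In 3 R9 rats the granule cell score was higher in the library labelled CA3 than in the library labelled DG. For this reason key genes are given by series, and counts over all genes and over the lists the text leads with are given without such rats. Rats left out for a library that scored highest for another subfield number 14, and are called off-label rats.

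**Figure D1:**
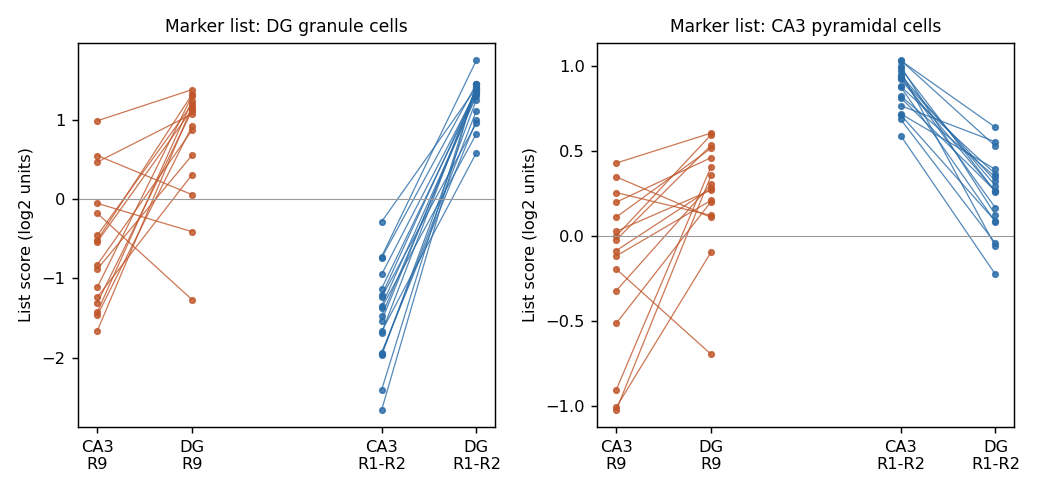
Score of the granule cell list (left) and the CA3 pyramidal cell list (right) in log2 units for every library, with a line joining the CA3 and DG library of 1 rat, for 16 R9 rats and 18 R1-R2 rats. The lines of the R1-R2 rats all rise on the left and all fall on the right, whereas on the left the lines of 3 R9 rats fall.

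Over all 34 rats, 16365 genes were tested and 2795 were higher in CA3 (17.1%) and 2478 higher in DG (15.1%), at an adjusted p under 0.05 by limma on the within-rat differences of log2(normalized count + 1). In R9 alone 4059 of 16401 genes passed, 2129 of them higher in CA3 (13.0%) and the others in DG (11.8%), and in R1-R2 alone 2338 were higher in CA3 (14.3%) and 1909 in DG (11.7%). The median log2 difference of all genes tested was 0.01. Of the 5228 genes that passed over all rats and were tested in both series, 4752 had the same sign in both, although those series make up the pooled fit. In both series alone, 503 genes passed as higher in CA3 (3.11% of those tested) and 539 as higher in DG (3.33%), while 237 passed in opposite directions (1.47%). Without the 14 off-label rats, which left 2 R9 and 18 R1-R2 rats, 2414 genes were higher in CA3 and 1965 in DG. Without the 3 rats with the inverted granule cell score, 3237 were higher in CA3 and 2722 in DG.

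**Figure D2:**
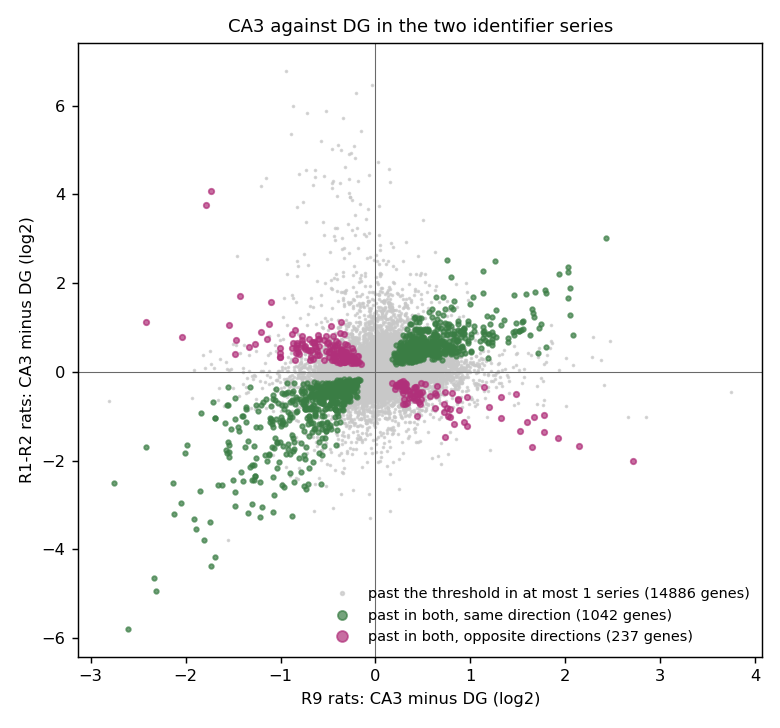
Log2 difference, CA3 minus DG, of each gene in the R9 rats (x axis) and in the R1-R2 rats (y axis). In both series 503 genes passed as higher in CA3 and 539 as higher in DG, and 237 genes above 0 on 1 axis and below it on the other passed in opposite directions.

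Of 12 granule cell markers in the table, 11 passed the filter on low values, and these 11 were higher in DG than in CA3 over the 34 rats, 9 of them also in R9 alone and 11 in R1-R2 alone, against 15.1%, 11.8% and 11.7% of all genes. The count was 11 of 11 also without the 3 inverted rats and without the 14 off-label rats. Both sets of rats were chosen by scores that include this list, so this count is no independent support. The marker left out, Tdo2, was at 0 in every CA3 library of the R1-R2 rats. Some of these genes (Pdyn, Plk5, C1ql2 and Dsp) were put forward for the DG by the study itself on these animals, so the list is not independent evidence. Prox1, the homeobox factor that specifies and maintains granule cells, had a lowest, median and highest normalized count of 70.5, 184 and 1095 in CA3 and 181, 997 and 1949 in DG. The libraries overlapped over all rats but not in the R1-R2 series, where the highest CA3 library had 365 and the lowest DG library 555. The log2 difference, CA3 minus DG, was -2.13 ± 0.19 (SE, n = 34 rats, adjusted p = 1.6e-10), and DG was higher in 31 of 34 rats. On this scale a difference of 1 is a ratio of 2.

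The markers differed in how much of their contrast the R9 rats carried. Plk5, a member of the polo-like kinase family found in brain, had the largest difference of the list at -3.70 ± 0.37 (SE, n = 34, adjusted p = 9.8e-10), with -2.31 in R9 and -4.93 in R1-R2. C1ql2, a secreted complement-related protein of mossy fiber synapses, differed by -3.01, with -1.69 in R9 and -4.18 in R1-R2. Dsp, the junction protein desmoplakin, differed by -1.74 in R9 and -3.39 in R1-R2, and Stxbp6, a regulator of vesicle fusion, by -0.86 and -1.73. The members C1ql3 and Calb1 (the calcium buffer calbindin of mature granule cells) did not pass the threshold in R9, where their differences were -0.36 and -0.11, against -2.75 and -1.51 in R1-R2. Il16 had the larger difference in R9, -1.56 against -0.33.

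Of the 12 CA3 pyramidal cell markers tested, 3 were higher in CA3 over all rats (25%, against 17.1% of all genes). In DG 2 were higher (16.7%, against 15.1%), so both counts were near those shares, and the series took opposite sides. In the R1-R2 rats 9 were higher in CA3 and none in DG, against 14.3% and 11.7% of all genes. In the R9 rats 1 was higher in CA3 and 7 in DG, against 13.0% and 11.8%. Without the 3 inverted rats the counts were 3 and 2, and without the 14 off-label rats 6 and 0. The off-label rats were chosen by scores that include this list, so the last counts are no independent support. Grik4, a high-affinity kainate receptor subunit of mossy fiber synapses, had a lowest, median and highest normalized count of 1708, 2241 and 3710 in CA3 and 1178, 1787 and 2272 in the DG libraries of the R1-R2 rats. In the R9 rats it had 446, 878 and 1455 in CA3 and 569, 1511 and 1948 in DG. CA3 was thus the higher library in 17 of 18 R1-R2 rats and in 1 of 16 R9 rats, and the difference between series was 1.26 (adjusted p = 1.2e-06). Bok, Elavl2, Kcnq5 and Pvrl3 (nectin-3, an adhesion protein of CA3 dendrites) also passed the threshold in opposite directions in the series. Homer3, a postsynaptic scaffold, and Cpne4, a copine, were higher in DG in R9 (-1.33 and -1.82) and had 0.02 and 0.37 in R1-R2, where they did not pass. Spock1 (0.91) and Slit2 (0.24) were higher in CA3 in R1-R2 and did not pass in R9, and Cdh24 passed in neither. Nnat, the imprinted gene neuronatin, was higher in CA3 in both series (0.63 in R9 and 1.09 in R1-R2). Plagl1, an imprinted zinc finger factor, had 0.76 in R9, where it did not pass, and 1.60 in R1-R2. The study itself named both genes for CA3.

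At an absolute log2 difference of at least 1, 201 of 16365 genes passed over all rats and in each series in the same direction. In this set 134 genes were higher in DG and 67 higher in CA3. At the same cut over all rats, without the demand on each series, 260 genes were higher in CA3 and 213 higher in DG. The balance between the sides thus depends on that demand. Membership in this set is fixed by these values, so the values that follow are a description. Besides Prox1 and the markers Trpc6 and Sema5a, the leading DG genes were Kctd4, Mei1, Dgkh, Epha7, Epha8, Tnfaip8, Lrrtm4, Rab40b and Zfpm2. Trpc6, a calcium-permeable cation channel opened by diacylglycerol, had a lowest, median and highest normalized count of 57.8, 138 and 398 in CA3 and 143, 585 and 855 in DG. DG was higher in 33 of 34 rats, and the difference was -1.84 ± 0.14 (SE, n = 34, adjusted p = 1.5e-11). Mei1, known for its role in meiotic recombination, had 23.2, 124 and 363 in CA3 and 136, 381 and 1015 in DG. It was higher in DG in 34 of 34 rats, by -1.81 ± 0.15 (adjusted p = 3.2e-11).

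Other leading DG genes had the following values. Dgkh, a diacylglycerol kinase, had 64.9, 151 and 555 in CA3 and 110, 561 and 1215 in DG, a difference of -1.71. Kctd4, a potassium channel tetramerization domain protein, had 253, 550 and 1511 in CA3 and 597, 1845 and 4362 in DG, a difference of -1.74. For both genes DG was higher in 32 of 34 rats. Tnfaip8 (-1.41), the small GTPase gene Rab40b (-1.12) and Zfpm2, a cofactor of GATA factors (-1.16), were higher in DG in 32, 32 and 31 of 34 rats. In the R9 series the Brinp2 gene, chosen here after its values were seen, was the 1 gene of 16365 (0.00611%) whose libraries did not overlap, from 712 to 1495 in CA3 and from 1528 to 2245 in DG. In the R1-R2 series the libraries of 248 genes (1.52%) did not overlap, and over all rats those of 0 genes.

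The leading genes on the CA3 side were Htr2c, Cpne8, Itga8, Tacr3, Sox5, Rhbdl3, Col6a2, Ptpru, Ociad2, Hs3st2, Galr1 and Grin3a. Htr2c, a Gq-coupled serotonin receptor, had a lowest, median and highest normalized count of 139, 907 and 2263 in CA3 and 46.0, 165 and 1337 in DG. CA3 was higher in 33 of 34 rats, and 9 CA3 libraries were above the highest DG library, which came from a young R9 rat with the inverted granule cell score. The difference was 2.08 ± 0.19 (SE, n = 34, adjusted p = 1.8e-10), with 1.93 in R9 and 2.2 in R1-R2. CA1 libraries had a median of 715.

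Other leading CA3 genes had the following values. Itga8, the integrin alpha subunit that pairs with beta-1, had 25.0, 134 and 462 in CA3 and 11.3, 46.6 and 130 in DG, a difference of 1.49 ± 0.15 (SE, n = 34, adjusted p = 1.4e-09). It was higher in CA3 in 33 of 34 rats, with 17 CA3 libraries above the highest DG library. Ptpru, a receptor tyrosine phosphatase, differed by 1.74, and Col6a2, a collagen chain of the matrix, by 1.65. Col6a2 is also made by fibroblasts and vessel walls, whose lists are given further on. Hs3st2, a heparan sulfate sulfotransferase, differed by 1.32, and Cpne8, a calcium-dependent membrane-binding copine, by 1.33. Rhbdl3, a rhomboid family protein, differed by 1.03 and Ociad2 by 1.14. Rhbdl3 had 490 to 1112 in CA3 and 146 to 428 in DG in the R1-R2 rats, with no overlap, and 416 to 882 against 262 to 819 in the R9 rats.

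All 24 leading genes also passed in the same direction in the young, the aged unimpaired and the aged impaired rats taken alone and with edgeR, DESeq2 and TMM rescaling, but they were chosen for small adjusted p in these same rats, so this is no independent support. The series differed in the size of the difference for Trpc6, Dgkh, Tnfaip8, Lrrtm4, Zfpm2, Rhbdl3 and Sox5, which were each further from 0 in R1-R2, with series differences from -1.09 to 0.84.

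**Figure D3:**
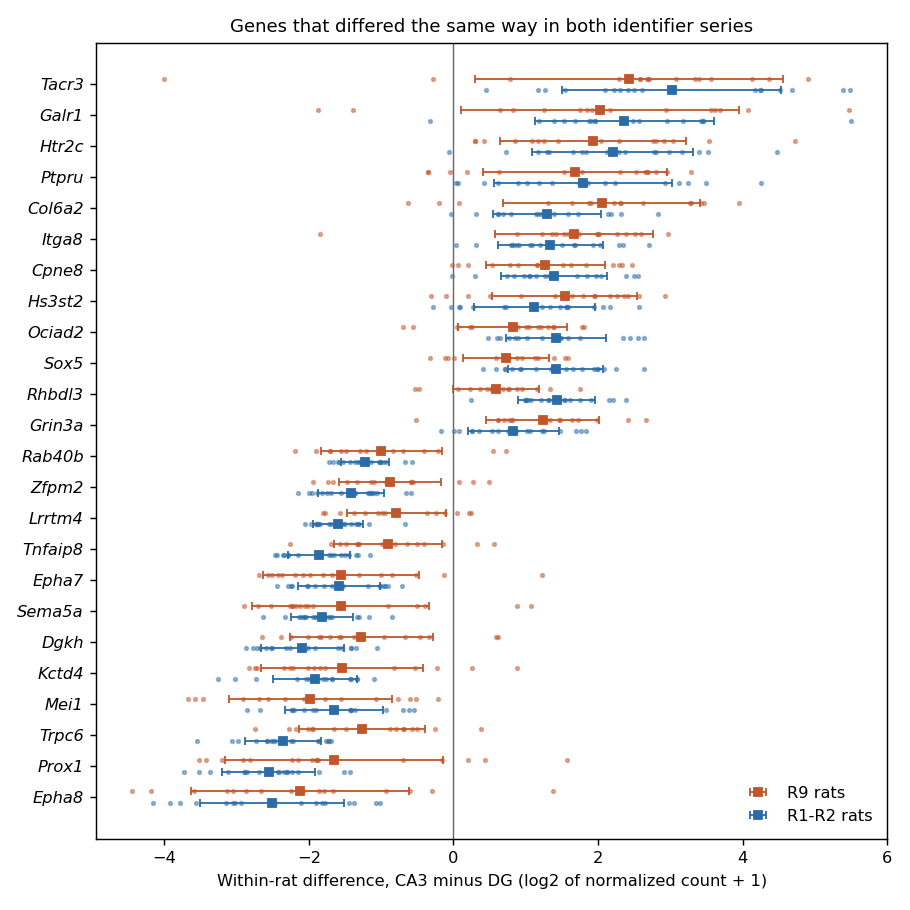
Within-rat difference, CA3 minus DG, in log2 of normalized count + 1, for the 24 leading genes, with 1 point per rat, and squares and bars for the mean and SD of 16 R9 rats and 18 R1-R2 rats. The means of both series lie on the same side of 0 for every gene, and single rats cross it, for the genes higher in DG R9 rats alone.

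Genes of the mossy fiber synapse, which joins the subfields compared here, numbered 23 of those tested, of which 11 were higher in DG (47.8%, against 15.1% of all genes) and 3 in CA3 (13.0%, against 17.1%) over all rats. The median difference was -0.17, against 0.01 over all genes, and 8 were higher in DG in both series. Without the 14 off-label rats 10 were higher in DG and 5 in CA3. C1ql2 and C1ql3 are in this list as well as among the granule cell markers. Bdnf, a neurotrophin that granule cells store in mossy fibers, had a lowest, median and highest normalized count of 88.3, 293 and 525 in CA3 and 225, 666 and 1018 in DG. DG was higher in 33 of 34 rats, by -1.11 ± 0.11 (SE, n = 34, adjusted p = 3.7e-10), with -1.11 in R9 and -1.12 in R1-R2. The study itself named Bdnf for the DG. Lrrtm4, a postsynaptic adhesion protein that binds heparan sulfate, differed by -0.79 in R9 and -1.59 in R1-R2, and Gpc4, a glypican that binds it, by -0.71 and -2.52. Syt7, a slow calcium sensor for release, differed by -0.60 and -0.85. Neto2, an auxiliary subunit of kainate receptors, was higher in CA3 by 0.41.

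Of 16 ionotropic glutamate receptor genes 4 were higher in CA3 (25.0%, against 17.1% of all genes) and 6 in DG (37.5%, against 15.1%). In R9 alone 4 were higher in CA3 and 4 in DG, and in R1-R2 alone 4 and 5. Without the 14 off-label rats 5 were higher in CA3 and 5 in DG. Grin3a, an NMDA receptor subunit that lowers calcium permeability, had 64.6, 162 and 364 in CA3 and 33.9, 70.7 and 223 in DG. It was higher in CA3 in 32 of 34 rats, by 1.02 ± 0.12 (SE, n = 34, adjusted p = 3.7e-08). Of the kainate receptor subunits Grik1 was higher in CA3 (0.63) and Grik2 higher in DG (-0.40), each past the threshold in both series. Grin2a, an NMDA receptor subunit, was higher in DG over all rats (-0.43), with -0.78 in R9, and had -0.13 in R1-R2, where it did not pass. Among 8 metabotropic receptor genes 2 were higher in CA3 (25%) and 3 in DG (37.5%), and without the 14 off-label rats 2 and 2. Grm2, an inhibitory presynaptic receptor of mossy fibers, had 0, 132 and 254 in CA3 and 569, 761 and 1254 in the DG libraries of the R1-R2 rats, which did not overlap, but 268, 533 and 837 against 60.6, 552 and 1329 in the R9 rats. Its series difference was -3.30 (adjusted p = 2.2e-06). Grm3 was higher in CA3 by 0.46, with 0.17 in R9, where it did not pass, and 0.71 in R1-R2.

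Of 12 GABA-A receptor subunit genes 5 were higher in DG (41.7%, against 15.1% of all genes) and 1 in CA3 (8.3%, against 17.1%). Gabrd, the delta subunit of extrasynaptic receptors that carry tonic inhibition in granule cells, had 23.8, 153 and 589 in CA3 and 129, 524 and 894 in DG. DG was higher in 30 of 34 rats, by -1.60 ± 0.20 (SE, n = 34, adjusted p = 6.4e-08), with -0.58 in R9 and -2.52 in R1-R2. The alpha-4 subunit gene Gabra4, a partner of delta, differed by -0.80, with -0.74 and -0.85 by series. The gamma-3 subunit gene Gabrg3 was higher in CA3 (0.75). Among 12 voltage-gated calcium channel genes 7 were higher in DG (58.3%) and 1 in CA3 (8.3%), and without the 14 off-label rats 5 and 1. The auxiliary alpha-2-delta subunits took opposite sides, with Cacna2d1 higher in DG (-0.56) and Cacna2d2 higher in CA3 (0.84), each in both series. Cacna1d, an L-type channel, was higher in DG over all rats (-0.68), with -1.03 in R1-R2, and had -0.29 in R9, where it did not pass. Of 17 genes for calcium-binding proteins 6 were higher in DG (35.3%) and 4 in CA3 (23.5%). Of 10 sodium channel and related cation channel genes 2 were higher in DG (20%) and 1 in CA3 (10%).

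Neuropeptide precursors and their receptors include genes on both sides of the comparison. Of 17 peptide precursors and secretory granule proteins tested, 6 were higher in DG (35.3%, against 15.1% of all genes) and 5 in CA3 (29.4%, against 17.1%), and without the 14 off-label rats 6 and 2. Of 24 receptors 3 were higher in DG (12.5%) and 7 in CA3 (29.2%), and without the 14 off-label rats 6 and 7. Promoter sequence is printed for Pdyn and Tacr3, a precursor and a receptor with large differences on opposite sides, and for Scg2 and Vgf, the peptide genes whose windows hold a cyclic AMP response element. The sequences are the 250 bases before the annotated transcript start in RefSeq on build GRCr8, which is not the build the reads were aligned to. They are written 5′ to 3′ on the strand of the gene. Capitals mark the letters TGACGTCA, the cyclic AMP response element that CREB binds, and TATAAA, the letters of a TATA box, both searched on both strands.
Pdyn (chr3:137366504-137366753, minus strand): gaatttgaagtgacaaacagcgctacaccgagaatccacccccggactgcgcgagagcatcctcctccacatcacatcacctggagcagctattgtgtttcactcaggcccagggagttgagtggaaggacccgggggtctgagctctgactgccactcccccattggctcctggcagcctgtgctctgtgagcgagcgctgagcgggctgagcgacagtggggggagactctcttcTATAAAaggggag
Scg2 (chr9:88256867-88257116, minus strand): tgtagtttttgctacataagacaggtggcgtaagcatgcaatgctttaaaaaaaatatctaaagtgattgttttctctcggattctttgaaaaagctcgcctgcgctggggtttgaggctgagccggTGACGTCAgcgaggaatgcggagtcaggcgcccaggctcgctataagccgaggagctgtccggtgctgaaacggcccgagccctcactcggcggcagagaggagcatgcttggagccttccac
Vgf (chr12:25277021-25277270, minus strand): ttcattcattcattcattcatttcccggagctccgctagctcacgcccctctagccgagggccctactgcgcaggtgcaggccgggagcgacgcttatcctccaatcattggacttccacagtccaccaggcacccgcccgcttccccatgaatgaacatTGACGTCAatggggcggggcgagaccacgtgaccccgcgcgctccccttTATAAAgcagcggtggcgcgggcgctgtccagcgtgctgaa
Tacr3 (chr2:225940247-225940496, plus strand): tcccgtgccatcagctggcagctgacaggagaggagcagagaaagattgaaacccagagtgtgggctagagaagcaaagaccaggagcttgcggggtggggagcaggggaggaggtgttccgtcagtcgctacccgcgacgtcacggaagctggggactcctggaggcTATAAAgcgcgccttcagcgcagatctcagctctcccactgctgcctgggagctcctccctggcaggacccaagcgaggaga

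The response element stands 123 bases before the start in Scg2 and 90 bases before it in Vgf, and is not in the windows of Pdyn and Tacr3. Of 33469 promoter windows of this length, 531 (1.59%) hold it and 4328 (12.9%) hold TATAAA. Windows were matched by symbol for 12 of 17 peptide genes, of which Scg2 and Vgf hold the element and 5 hold TATAAA, and for 22 of 25 receptor genes, of which 1 and 2 do. TATAAA begins 13 bases before the start in Pdyn, 41 in Vgf and 82 in Tacr3. A match describes the letters and is not evidence of binding or of a working TATA box.

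Pdyn, the precursor of dynorphins, opioid peptides of mossy fibers, had a lowest, median and highest normalized count of 15, 179 and 1669 in CA3 and 137, 1767 and 3088 in DG. The libraries did not overlap in the R1-R2 series, with 491 the highest in CA3 and 1085 the lowest in DG. DG was higher in 32 of 34 rats, by -3.13 ± 0.30 (SE, n = 34, adjusted p = 3.8e-10), with -1.73 in R9 and -4.38 in R1-R2, and the series difference was -2.65 (adjusted p = 1.4e-05). Nmb, the precursor of neuromedin B, had 0, 15.4 and 162 in CA3 and 9.37, 111 and 186 in DG, and was higher in DG in 32 of 34 rats. Its difference was -2.62 ± 0.28 (adjusted p = 4.0e-09), and the series values of -2.75 and -2.51 differed by 0.24 (adjusted p = 0.81). Penk, the enkephalin precursor, was higher in DG in R1-R2 (-1.46) and had -0.62 in R9, where it did not pass.

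Scg2 and Vgf, which share the response element, are both precursors packed in dense-core vesicles and were on opposite sides. Scg2, secretogranin II, had 964, 3949 and 5720 in CA3 and 2540, 6043 and 9588 in DG, and was higher in DG in 31 of 34 rats, by -0.70. Vgf had 30.7, 417 and 786 in CA3 and 118, 303 and 695 in DG, and was higher in CA3 in 26 of 34 rats, by 0.47 ± 0.15 (SE, n = 34, adjusted p = 0.012), past the threshold in R9 (0.77) and not in R1-R2 (0.20). The cholecystokinin gene Cck was higher in CA3 by 0.69 in each series, and Tac1, the substance P precursor, by 1.35 in R9 and 0.49 in R1-R2, where it did not pass. Cck and several other peptides are also made by interneurons, whose markers are given further on.

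The receptor genes with the largest differences, Tacr3 and Galr1, were both higher in CA3, and the study itself named both for CA3. Tacr3, the neurokinin B receptor, had 5.41, 123 and 293 in CA3 and 0, 13.5 and 102 in DG, with 20 CA3 libraries above the highest DG library. CA3 was higher in 32 of 34 rats, by 2.74 ± 0.29 (SE, n = 34, adjusted p = 4.0e-09), with 2.42 in R9 and 3.02 in R1-R2. Galr1, an inhibitory galanin receptor, had 3.5, 48.1 and 204 in CA3 and 0, 7.06 and 47.0 in DG, with 18 CA3 libraries above the highest DG library. CA3 was higher in 31 of 34 rats, by 2.21 ± 0.26 (adjusted p = 2.7e-08). The mu opioid receptor gene Oprm1 was higher in CA3 in R1-R2 (1.18) and had 0.43 in R9, where it did not pass.

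**Figure D4:**
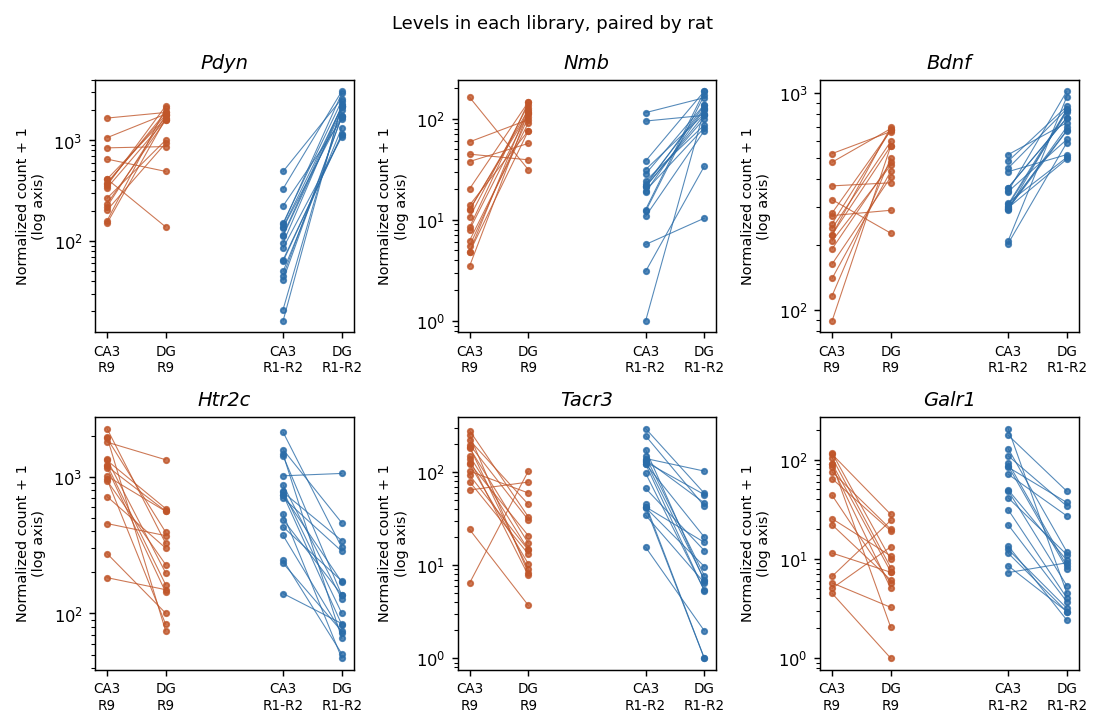
Normalized count + 1 on a log axis for 3 genes higher in DG (Pdyn, Nmb and Bdnf) and 3 genes higher in CA3 (Htr2c, Tacr3 and Galr1), with a line joining the libraries of 1 rat. Medians were 179 in CA3 and 1767 in DG for Pdyn, and 123 in CA3 and 13.5 in DG for Tacr3.

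Of 29 receptor genes for monoamines and acetylcholine 13 were higher in CA3 (44.8%, against 17.1% of all genes) and 7 in DG (24.1%, against 15.1%). The median difference was 0.34, and 4 were higher in CA3 in both series. Without the 14 off-label rats 8 of 28 were higher in CA3 and 5 in DG, with a median of 0.07. After Htr2c, the ionotropic serotonin receptor gene Htr3a (0.90), the dopamine D2 receptor gene Drd2 (1.23) and the alpha-2A adrenoceptor gene Adra2a (0.83) were higher in CA3, each in both series. Drd2 had 9.83, 35.1 and 145 in CA3 and 2.03, 12.8 and 188 in DG, so the libraries overlapped throughout, and CA3 was higher in 29 of 34 rats. Drd2 is also a marker of the mossy cells of the hilus, a DG area, and of that list 2 of 4 genes tested were higher in CA3 and none in DG. Htr1a, an inhibitory serotonin receptor, was higher in DG in R1-R2 (-1.07) and had -0.47 in R9, where it did not pass. Of 8 steroid and thyroid hormone receptor genes 2 were higher in CA3 (25%, against 17.1% of all genes). Among them was Esr1, the estrogen receptor alpha gene, by 1.27 ± 0.25 (SE, n = 34, adjusted p = 0.00017). Esr1 had 0.63 in R9, where it did not pass, and 1.85 in R1-R2. Of 16 activity-regulated genes 5 were on each side (31.2%, against 17.1% of all genes for CA3 and 15.1% for DG). Without the 14 off-label rats 2 were higher in CA3 and 4 in DG. Nr4a1, an immediate early factor, was higher in CA3 in both series (0.79 and 0.45), and Egr2, another, passed in R9 (1.72) and not in R1-R2 (0.53).

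Axon guidance genes were found on both sides. Of 21 ephrin and Eph receptor genes 8 were higher in DG (38.1%, against 15.1% of all genes) and 7 in CA3 (33.3%, against 17.1%), and without the 14 off-label rats 5 and 6. Epha8, a receptor for A-type ephrins, had a lowest, median and highest normalized count of 60.7, 222 and 1268 in CA3 and 489, 1142 and 3780 in DG, with 30 CA3 libraries below the lowest DG library. DG was higher in 33 of 34 rats, by -2.33 ± 0.20 (SE, n = 34, adjusted p = 7.1e-11). Epha7, of the same receptor class, had 245, 517 and 1674 in CA3 and 653, 1963 and 3259 in DG, a difference of -1.57, with -1.56 and -1.58 by series. Ephb2 was higher in DG (-0.53) and Ephb6, which lacks kinase activity, higher in CA3 (0.69).

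Of 29 semaphorin, plexin and neuropilin genes 7 were higher in DG (24.1%) and 12 in CA3 (41.4%), and without the 14 off-label rats 5 and 9. Sema5a, a transmembrane semaphorin of the granule cell list, had 552, 1103 and 3298 in CA3 and 1181, 4547 and 6240 in DG, a difference of -1.70 (adjusted p = 4.6e-11). Plxna4, a receptor for semaphorins, was higher in DG (-0.74 in R9 and -0.56 in R1-R2) and the secreted Sema3b higher in CA3 (0.57 and 1.34). Of 17 slit, robo and netrin genes 6 were higher in DG (35.3%) and 3 in CA3 (17.6%), and without the 14 off-label rats 5 and 5. Robo3, a receptor known from midline crossing, had 13.0, 65.6 and 594 in CA3 and 100, 373 and 1504 in DG, and was higher in DG in 32 of 34 rats, by -1.85 in R9 and -2.69 in R1-R2. Unc5d (-1.23) and Robo2 (-0.62) were higher in DG, and Ntn4 (0.73) in CA3, each in both series, and Unc5b was higher in CA3 in R1-R2 (1.28) with 0.39 in R9, where it did not pass. Of 17 classical cadherins 7 were higher in CA3 (41.2%) and 3 in DG (17.6%) over all rats, but 2 and 2 in R9 and 4 and 3 in R1-R2, and in both series none was higher in CA3 and 2 were higher in DG. Cdh9, which has a role at mossy fiber contacts, was higher in DG by -1.57 in R9 and -0.74 in R1-R2. Cdh13 had -0.29 and -1.42, and Cdh6 had 0.39 and 0.75, each without passing in R9.

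Of 28 transcription factors of hippocampal neurons 14 were higher in DG (50.0%, against 15.1% of all genes) and 5 in CA3 (17.9%, against 17.1%), with a median difference of -0.15. Without the 14 off-label rats 15 were higher in DG and 6 in CA3. After Prox1, Rfx3, a regulator of ciliary genes, had 105, 175 and 581 in CA3 and 140, 597 and 1208 in DG, a difference of -1.02 in R9 and -2.04 in R1-R2. Zfpm2 had 136, 201 and 377 in CA3 and 200, 514 and 956 in DG. In the R1-R2 rats the CA3 and DG libraries did not overlap for Rfx3, with CA3 ending at 274 and DG beginning at 365. On the CA3 side Sox5, a SoxD factor of projection neurons, had 53.4, 134 and 360 in CA3 and 28.4, 62.4 and 117 in DG, with 25 CA3 libraries above the highest DG library, and differed by 1.09. Meis1, a homeobox factor, differed by 1.14, Etv1 by 0.68 and Foxp1 by 0.67, each in both series.

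The 2 series differed in the subfield contrast itself for 3104 of 16365 genes (19.0%), of which 1628 were more positive in R1-R2 and 1476 more positive in R9. Of the 237 genes that passed in opposite directions, 151 were higher in DG in R9 and higher in CA3 in R1-R2, and 86 the reverse. Tp73, a p53 family factor known as a Cajal-Retzius cell marker and for multiciliated cells, had a lowest, median and highest normalized count of 0, 20.6 and 89.2 in CA3 and 10.1, 50.4 and 110 in the DG libraries of the R9 rats. In the R1-R2 rats it had 59.8, 118 and 271 in CA3 and 1.67, 4.14 and 51.6 in DG, which did not overlap. The differences were -1.74 and 4.07, and that between series was 5.81 (adjusted p = 4.3e-10).

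Other genes of this kind, chosen because they passed in opposite directions, are given as a description. Neurod6, a basic helix-loop-helix factor of pyramidal neurons, had a difference of -0.70 in R9 and 0.75 in R1-R2. Dkk3, a secreted dickkopf family protein of pyramidal cells, had -0.74 and 0.58, the calcium exchanger gene Slc24a2 -0.66 and 0.67, the protein kinase C gene Prkca -0.37 and 1.13, and Tmem215 -1.79 and 3.75. Prkca did not overlap between subfields in R1-R2, with CA3 beginning at 2676 and DG ending at 2220, whereas the R9 libraries ran from 870 to 2135 in CA3 and from 1238 to 2920 in DG. On the other side, Grb10, an imprinted adaptor protein, had 0.43 in R9 and -1.0 in R1-R2, the adenylyl cyclase gene Adcy2 0.29 and -0.74, and the cyclic GMP phosphodiesterase gene Pde9a 0.72 and -0.73. CA1 medians of these 3 genes, 510, 2178 and 378, were above their DG medians of 432, 1683 and 314 over all rats. The matrix protein gene Dpt had 2.71 and -2.01. Genes with the identifiers ENSRNOG00000022237 (1.33 and -0.57) and ENSRNOG00000011123 (0.32 and -0.72) have no symbol in the table.

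Markers of other subfields and cell types moved with the comparison, and differently in the series. Of 7 CA1 pyramidal cell markers 5 were higher in CA3 over all rats (71.4%, against 17.1% of all genes) and none in DG. In both series 4 were higher in CA3. Without the 14 off-label rats, which were chosen in part by this list, 3 were higher in CA3 and 1 in DG. Fibcd1 had 39.1, 558 and 1002 in CA3 and 20.6, 93.7 and 459 in DG, a difference of 1.97, with 2.05 in R9 and 1.90 in R1-R2, and its CA1 median was 522. Mpped1 differed by 1.63 in R9 and 0.83 in R1-R2. The summed normalized count of the 7 genes ran from 2406 to 12837 in CA3 and from 786 to 10161 in the DG libraries of the R9 rats, and from 1136 to 7016 and from 776 to 7150 in the R1-R2 rats. Of 6 CA2 markers 3 were higher in CA3 (50%) and 1 in DG (16.7%, against 15.1% of all genes). The CA2 genes Amigo2 and Cacng5 were higher in CA3 in R1-R2 (1.78 and 2.53) and had 0.22 and 0.08 in R9, where they did not pass. The part of CA1 or CA2 tissue in the results was not tested.

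All 12 oligodendrocyte markers were higher in CA3 over all rats, 12 of 12 in R1-R2 and 0 of 12 in R9, and the series differed for all 12. The shares of all genes higher in CA3 were 17.1%, 14.3% and 13.0%. Without the 14 off-label rats the count was 12 of 12, but that fit holds 18 R1-R2 and 2 R9 rats and nearly repeats R1-R2 alone. Mbp, myelin basic protein, had a lowest, median and highest normalized count of 62934, 95297 and 211571 in CA3 and 20159, 25100 and 52484 in the DG libraries of the R1-R2 rats, which did not overlap. In the R9 rats it had 28686, 59630 and 130737 in CA3 and 31961, 49245 and 97350 in DG. Mobp followed the same course, with 0.03 in R9 and 1.72 in R1-R2. The summed count of the 12 genes ran from 119611 to 362076 in CA3 and from 38189 to 81115 in the DG libraries of R1-R2, and from 50217 to 211455 and from 60939 to 198112 in R9.

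Of 8 ependymal cell markers 6 were higher in CA3 over all rats, 6 in R1-R2 and 0 in R9, against 17.1%, 14.3% and 13.0% of all genes. Without the 14 off-label rats 6 were higher, in a fit that again nearly repeats R1-R2 alone. Tmem212 had 37.6, 80.5 and 195 in CA3 and 0, 0 and 1.69 in the DG libraries of the R1-R2 rats, against 1.5, 16.9 and 78.4 in CA3 and 0, 18.8 and 102 in the DG libraries of the R9 rats. Spag17, an axoneme protein of motile cilia, had 22.0, 68.8 and 141 in CA3 and 0, 0 and 2.03 in the DG libraries of R1-R2, and Sntn, another ciliary gene of the list, was at 0 in every DG library of these rats. The summed count of 9 ependymal genes ran from 620 to 2008 in CA3 and from 217 to 352 in the DG libraries of R1-R2, and from 267 to 949 and from 290 to 1212 in R9. Of 8 choroid plexus genes 3 were higher in CA3, among them Folr1 (5.00 in R1-R2 and -0.36 in R9) and Ttr, the thyroid hormone carrier transthyretin, which reached 13330 in 1 CA3 library with a CA3 median of 248. The summed count of 9 choroid plexus genes ran from 58.2 to 14697 in CA3 and from 22.4 to 2672 in the DG libraries of R1-R2, and from 94.3 to 2153 and from 80.7 to 4672 in R9.

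The score of the Cajal-Retzius list differed by -0.11 in R9 and 1.69 in R1-R2, with 18 of 18 R1-R2 rats above 0. Of its 3 genes tested 2 were higher in CA3 over all rats. The series differed for 1 of the 3, Tp73 (R1-R2 minus R9, 5.81), which is also known for multiciliated cells. In R9 alone 2 of the 3 were higher in CA3 and 1 in DG, and in R1-R2 alone 2 and 0. Interneuron markers were higher in CA3 for 11 of 16 genes and in DG for 1, and without the 14 off-label rats for 5 and 1. Dlx1 (0.55) and the vesicular GABA transporter gene Slc32a1 (0.49) were higher in CA3, each in both series. Astrocyte markers were higher in CA3 for 6 of 12 genes and in DG for none, with 8 in R9 and 0 in R1-R2, and 0 without the 14 off-label rats. Gjb6, connexin 30, differed by 0.58 in R9 and 0.15 in R1-R2, where it did not pass. Microglia markers were higher in CA3 for 8 of 12 genes and in DG for none, and for 5 without the 14 off-label rats. Each series alone gave 3, of which 1 was shared. The counts of the small lists stand beside 17.1% of all genes higher in CA3 and 15.1% higher in DG. Over all rats 2 of 8 endothelial markers were higher in CA3, with 5 in R9 and 0 in R1-R2. Of 8 subiculum and cortex markers 2 were higher in CA3 over all rats and 5 in R9, whereas in R1-R2 none was and 2 were higher in DG. Both blood markers were higher in CA3 in R9 and neither in R1-R2 or over all rats. Of 10 thalamic markers 4 were higher in CA3 and 1 in DG over all rats. Each series alone gave 3 and 1, but none passed in the same direction in both, and 1 passed in opposite directions. Over all rats 1 of 5 mural cell markers and 1 of 3 pituitary markers were higher in CA3, and none in DG. Of 7 fibroblast genes 2 were higher in CA3 over all rats, 4 in R9 and 1 in R1-R2. Lum had 0.44 in R9, where it did not pass, and 2.61 in R1-R2, and Dcn had 1.30 in R9 and 0.39 in R1-R2, where it did not pass. The summed count of the fibroblast list reached 21181 in 1 CA3 library of R9, against a median of 636 in the CA3 libraries of that series, and ran from 185 to 767 in its DG libraries. Of 8 genes of dividing progenitors and newborn neurons, 2 were higher in CA3, Dcx (0.12 in R9, where it did not pass, and 0.54 in R1-R2) among them, and 1 was higher in DG, the proliferation gene Mki67 (-0.64). The part of these cell types in the subfield differences was not tested.

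**Figure D5:**
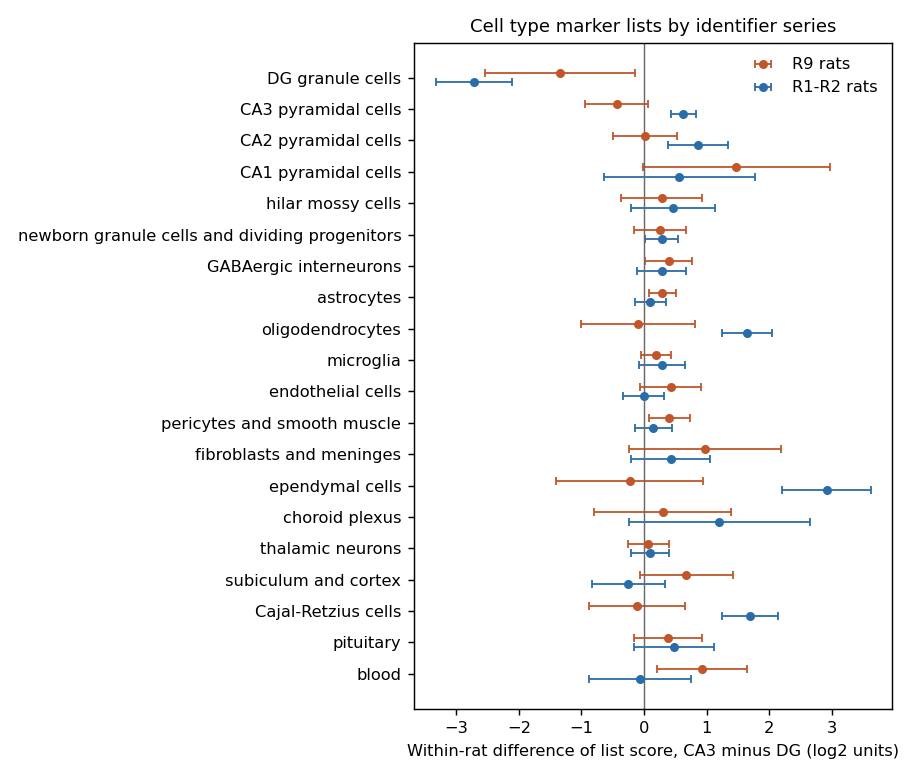
Within-rat difference of the list score, CA3 minus DG, in log2 units, as mean and SD of 16 R9 rats and 18 R1-R2 rats for 20 marker lists. The ependymal list stands at 2.91 in the R1-R2 rats and at -0.23 in the R9 rats, and the oligodendrocyte list at 1.64 and -0.09.

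No difference of the subfield contrast was detected between ages or by memory performance. No gene passed for aged against young rats (24 against 10 within-rat differences, 16365 genes, 0.0%), where 382 genes had an unadjusted p under 0.05 by limma and edgeR called 0. No gene passed for aged impaired against aged unimpaired rats (12 against 12, 16329 genes, 0.0%). There 308 genes had an unadjusted p under 0.05 by limma, and edgeR called 0. Both counts are below 0.05 of the genes tested, the share expected where no gene differs. With the identifier series as a covariate the counts were 448 for age and 455 for memory, and 0 genes passed. These counts are thus no sign of a difference, and the 0 does not show that none exists. The means of leading genes by group are given as a description. Htr2c had a difference of 2.38 in young, 1.87 in aged unimpaired and 2.03 in aged impaired rats, and Tacr3 had 2.81, 2.62 and 2.79. Prox1 had -2.26 ± 1.0 in young (SD, n = 10), -2.45 ± 1.13 in aged unimpaired (SD, n = 12) and -1.71 ± 1.39 in aged impaired rats (SD, n = 12). For Bdnf the values were -1.15, -1.09 and -1.11.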

How the data were processed

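RNA of 34 CA3 and 34 DG libraries was analysed, with poly-A selection and Ion Proton sequencing per the labels. The authors aligned reads to rn5 with TopHat2 and Bowtie2 in Partek Flow, counted genes with featureCounts 1.4.4 and divided the counts by DESeq2 1.10.1 size factors. The deposited signal values are these normalized counts. Whole reads were recovered from their steps (100.0% of values whole within 0.1). The submitters' processing notes also name bcl2fastq 2.17, cutadapt 1.8.3 and STAR 2.5, which the study used for its Illumina libraries, not analysed here.

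Within-rat differences of log2(normalized count + 1) were tested with limma 3.58.1 (trended empirical Bayes, R 4.3.3) for genes whose mean normalized count reached 5, with Benjamini-Hochberg adjustment over all genes tested and a threshold of 0.05. The smallest chi-square per gene between libraries was 3.81 in CA3 and 4.58 in DG, so none was counted as a duplicate. Same-numbered libraries come from 1 rat per the labels, which sets the pairing. Their deviations from the subfield means correlated at 0.020 on average (over 0.1 in 10 of 34 rats), and at 0.066 within series (17 of 34). Alternatives were other pseudocounts and filters, TMM, edgeR 4.0.16, DESeq2 1.42.0, no block, subsets of rats, and 1 fit over 3 subfields. The pipeline was tested on simulated counts with planted differences. These held no differences between rats and no off-label libraries, so that test does not cover such features of the data.

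Named genes were the 12 per direction with the smallest adjusted p among those with an absolute log2 difference of at least 1 that passed in each series, up to 4 per direction from each list, all markers of CA3 and DG, and the 6 per direction with the smallest adjusted p for a difference between series among genes passing in opposite directions. Members and lists were chosen with earlier results of these data known. Promoters came from RefSeq on GRCr8 and no genome of the aligned build was used here. Figures were drawn with matplotlib 3.10.9. Values of some named genes are not reported here.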

Additional observations from a re-analysis of the deposited data

Results flagged for a closer look

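Groups of 10 young libraries mix both series, and the genes share the same libraries, so no chance rate is given here. Among the leading genes and the markers of CA3 and DG, 11 of 88 such groups had a highest library that stood apart from the others. In DG these were C1ql2 (2247 normalized counts, next highest 1253), Col6a2 (276 and 121), Epha8 (3780 and 1458), Galr1 (33.0 and 18.1), Grin3a (149 and 92.8), Hs3st2 (130 and 62.4), Htr2c (1337 and 393) and Kctd4 (4362 and 2286). In CA3 they were Dgkh (254 and 159), Epha8 (473 and 275) and Hs3st2 (286 and 175). The highest DG values of Grin3a, Hs3st2 and Htr2c came from 1 library, that of a young R9 rat with the inverted granule cell score.

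Looked at here were the leading genes, the markers of CA3 and DG, and the genes named for opposite directions. For 36 of these the CA3 minus DG difference itself differed between the identifier series (limma, adjusted p under 0.05). Other named genes that differed, such as Grm2, are not in this count. The log2 value, R1-R2 minus R9, was above 0 for Bok (1.26), Cpne4 (2.19), Dkk3 (1.32), Elavl2 (1.43), Grik4 (1.26), Homer3 (1.34), Il16 (1.23), Kcnq5 (1.49), Neurod6 (1.45), Prkca (1.5), Pvrl3 (1.31), Rhbdl3 (0.84), Slc24a2 (1.34), Slit2 (0.60), Sox5 (0.69), Spock1 (1.04), Tmem215 (5.54) and Tp73 (5.81). It was below 0 for Adcy2 (-1.02), C1ql2 (-2.48), C1ql3 (-2.39), Calb1 (-1.40), Dgkh (-0.81), Dpt (-4.72), Dsp (-1.65), ENSRNOG00000011123 (-1.03), ENSRNOG00000022237 (-1.90), Grb10 (-1.44), Lrrtm4 (-0.81), Pde9a (-1.45), Pdyn (-2.65), Plk5 (-2.63), Stxbp6 (-0.87), Tnfaip8 (-0.95), Trpc6 (-1.09) and Zfpm2 (-0.54). What the series stand for is not given by the labels. The study worked at 2 sites, whose numbers of young and aged rats equal those of the series, and the labels name no site for a rat, so series and site cannot be told apart.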

How the results depend on the processing

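The count of 5273 genes over all rats stayed within 1.5 times under every setting over all rats and in each series alone. It fell to 1854 in the 10 young, 1312 in the 12 aged unimpaired and 416 in the 12 aged impaired rats taken alone. These fits hold fewer rats, but the order of the counts does not follow the number of rats. The cause was not tested. TMM gave 2555 genes higher in CA3 and 2777 in DG, and edgeR 2554 and 2698, against 2795 and 2478. Without the rat as a replicate block 5014 genes passed, 4863 of them also with the block and in the same direction, and the pairing changed the call of 2 of 121 named values. The counts of 0 for age and memory stayed 0 under each setting run. Leaving out the 3 rats with inverted scores, chosen after seeing the data, gave 5959 over all rats and 6057 in R9.

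The 24 leading genes passed in the same direction under the 17 alternatives run for all rats, as their choice by adjusted p over all rats and in each series alone fixes in part. Signs turned in R9 alone for Elavl2 (-0.61), Folr1 (-0.36), Grm2 (0.16), Kcnq5 (-0.46), Spag17 (-0.72), Spock1 (-0.13), Tmem212 (-0.20) and Tp73 (-1.74), and in R1-R2 alone for Bok (0.44), Cpne4 (0.37), Grik4 (0.42), Homer3 (0.017), Pvrl3 (0.56) and Slit2 (0.24). Without rats scoring for another subfield they turned for Bok (0.27), Cpne4 (0.10), Grik4 (0.32), Pvrl3 (0.41) and Slit2 (0.17). These genes belong to a list by which those rats were chosen. DESeq2 without the block gave 0.0034 for Grik4, 0.038 for Pvrl3 and 0.024 for Slit2, aged unimpaired rats alone 0.057 for Bok, and aged impaired rats alone 0.071 for Slit2. The cause was not tested. Leaving out single rats was not run, since each group holds 10 or more. Depth limits genes with few reads, and a count of 0 in DG is a floor and not an absence.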
